A study of Homo sapiens with 64 samples.

Results

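The 34 genes described here encode the machinery that brings proteins into mitochondria, folds them and degrades them. Mitochondria make few of their own proteins and import the rest from the cytosol as unfolded precursors. Receptors and the TOMM40 pore of the TOM complex take precursors across the outer membrane, and the TIM23 complex and a motor built on the mitochondrial HSP70 (HSPA9) draw those with a presequence into the matrix. Small TIM proteins hand membrane carriers to the TIM22 complex, the processing peptidase removes presequences, chaperones such as HSPD1 with HSPE1 fold the arriving chains, and proteases such as LONP1 and CLPXP remove those that fail to fold. The 34 genes were picked by symbol for their role from the 60649 genes of the count table, and all 34 were found and passed the filter on low counts in each of the 4 lines. They were grouped by role into 7 matrix chaperones and cochaperones, 10 proteases and peptidases, 6 genes of the TIM23 complex, 5 of the TIM22 and small TIM system and 6 of the TOM complex and its cytosolic helper TOMM34.

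RNA was sequenced from 4 established lines of non-small cell lung cancer (H460, H838, H1703, H1755) grown in serum-containing medium. Each line received the vehicle DMSO, the MYC inhibitor MYCi975 at 5 µM, the class IIa histone deacetylase inhibitor TMP195 at 25 µM, or both compounds at those doses, for 24 h, with 4 libraries in each of the 16 groups. The study asked which transcripts the treatments changed. The labels do not say whether the 4 libraries of a group came from separate cultures, so p-values measure the spread between these libraries, which may be technical. A library held 17352066 to 34236552 counts. Levels of the 34 genes below are CPM (a gene's share of a library's counts, on a fixed scale) with TMM scaling over all 64 libraries. Those of EEF1G and of the cell markers are CPM without TMM scaling. Where 4 values stand in a row, they are replicates 1 to 4. Fold changes are on the log2 scale. The standard error given with them was worked out as the size of the fold change over the square root of the test's F statistic. A gene was called where its adjusted p in the edgeR quasi-likelihood test was below 0.05. In bulk RNA, fewer cells of a kind and less RNA per cell cannot be told apart.

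The libraries fell into sets that cut across the groups. In 7 libraries of H460 (combination replicate 1, and replicates 1 and 2 of the other 3 treatments), EEF1G, which overlaps another gene, read at 639 to 759 CPM, and it was at 0 in the other 57 libraries. These 7 are called overlap-counted below, from EEF1G alone. The labels do not say whether their reads were counted in another way. The 16 libraries of replicate 4 gave 5.12 to 10.7% of their counts to mitochondrial ribosomal RNA, the 5 libraries with another style of column name 7.39 to 10.2%, and the 36 others of the first set 10.1 to 19.1%. Of these 5, 3 are TMP195 replicates 1 to 3 of H838. The others are MYCi975 replicate 3 of H838 and combination replicate 2 of H1703. The epithelial keratin KRT8 had a median of 1327 CPM in H460, 668 in H838, 416 in H1755 and 21.0 in H1703, while the mesenchymal marker VIM was at 510 CPM or more by median in every line. The epithelial adhesion genes EPCAM and CDH1 were low, with medians of at most 3.46 and 3.94 CPM, and of the leukocyte, endothelial and fibroblast markers looked at COL1A1 had the highest median, 9.28 CPM in H838. TMP195 replicate 1 of H838 has the line name misspelt in some of its labels, and its title set its group.

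Under vehicle, 31 of the 34 genes differed between the lines (edgeR F test over the 16 vehicle libraries), against 87.7% of all genes tested. The exceptions at this threshold were GRPEL1, TIMM50 and TOMM40, with adjusted p of 0.0988, 0.369 and 0.112. Without the 2 overlap-counted vehicle libraries of H460, 28 were called, against 83.2% of all genes. TIMM13, a small TIM chaperone of the intermembrane space, had the widest range of the 34. It read 3.25, 4.14, 3.83 and 3.52 CPM in the vehicle libraries of H1703, and 21.4 to 56.3 CPM in the 12 vehicle libraries of the other lines. H1703 therefore did not overlap with any other line, and the mean of the highest line, H1755, was 10.7-fold that of H1703 (adjusted p = 9.18e-09). TIMM13 shares 13.0% of its exon bases with LMNB2 on the same strand and 15.9% with TMPRSS9 on the other. TIMM21, a TIM23 subunit that also links import to respiratory chain assembly, had a vehicle mean of 41.4 CPM in H1703 and 13.5 in H838, a 3.07-fold difference (adjusted p = 7.15e-10).

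The combination moved more of these genes than either agent, and H1703 was where most calls lay. Against vehicle in H1703, 7 of the 34 rose and 14 fell, or 61.8% of the members, against 38.3% of all genes called in that comparison (19.9% higher and 18.5% lower). The members' median log2 fold change there was -0.23, and that of all tested genes was 0.02. In H460 the combination raised 3 and lowered 4 (20.6% of members, against 15.7% of all genes, 9.72% higher and 5.98% lower), with a median of -0.12 for the members and -0.03 for all genes. In H838 it raised 2 and lowered 0 (5.88% of members, against 3.24% of all genes, 2.29% higher and 0.955% lower), and in H1755 it called 0 (against 1.69% of all genes). The H838 split turned when replicate number entered the fit as a block, which called 3 higher and 6 lower (8.31% and 6.57% of all genes), and when a term for library set did, which called 3 higher and 8 lower (9.34% and 8.36%). The edgeR test gave 2 members at an unadjusted p below 0.05 in H1755, and DESeq2 also called 0 there (3.87% of all genes).

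Single agents called few members. MYCi975 in H1703 raised 2 (HSPA9 and LONP1) and lowered 2 (TIMM17A and TIMM21), which is 11.8% of members against 10.2% of all genes (6.04% higher and 4.12% lower) and so near the background. TMP195 in H1703 raised 4 (HSPA9, DNAJA3, GRPEL2 and LONP1) and lowered 0, again 11.8% of members, against 9.65% of all genes (6.07% higher and 3.57% lower). With the replicate block 5 rose and 9 fell with TMP195 (12.9% and 10.9% of all genes), and with the library set term 5 rose and 7 fell (12.4% and 10.4%), so that most calls were then falls. Neither agent alone called a member in the other 3 lines, where MYCi975 called 1.09% (H460), 0% (H838) and 0.0643% (H1755) of all genes and TMP195 1.13%, 0.572% and 0.43%. At an unadjusted p below 0.05 the edgeR test gave 4, 2 and 0 members for MYCi975 and 3, 8 and 0 for TMP195 in those lines. DESeq2 called 1, 0 and 0 members for MYCi975 (3.24%, 0.204% and 0.425% of all genes) and 1, 1 and 0 for TMP195 (2.5%, 2.23% and 1.05%). Over the 12 comparisons with vehicle, 22 members were called at least once and 12 were not.

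These counts depended on whether library sets or replicate numbers entered the fit. With a term for library set, the combination called 18 members in H460 (31.5% of all genes), 11 in H838 (17.7%), 21 in H1703 (45.8%) and 5 in H1755 (15%). Where same-numbered libraries varied together, a block for replicate number called, for the combination, 9 in H838 (14.9% of all genes) and 11 in H1755 (24.2%). In H1755 these were 2 higher and 9 lower (12% and 12.3% of all genes). For MYCi975 the block called 13 members in H1703 (25.6% of all genes), 5 higher and 8 lower (13.5% and 12.1%), 7 in H1755 (9.23%), all lower (4.72% of all genes were higher and 4.51% lower), and 4 in H460 (6.52%). For TMP195 it called 14 members in H1703 (23.8% of all genes), 5 in H1755 (10.5%), all lower (5.47% higher and 5.02% lower over all genes), 3 in H838 (7.46%) and 2 in H460 (5.15%). The library set term called 12 for TMP195 in H1703 (22.7% of all genes), and 0 in H838 (0.32%), where 1 was at an unadjusted p below 0.05. Without the 7 overlap-counted libraries, H460 kept 1 member call with the combination, LONP1, among 1.42% of all genes. Only replicates 3 and 4 of vehicle and each single agent, and combination replicates 2 to 4, remained in that fit. A call lost there may therefore reflect fewer libraries, which was not tested. For the combination in H1703, leaving out 1 library at a time gave 13 to 21 member calls, with 13 when vehicle replicate 2 was left out. Shares of all genes in those fits are not given here, so this range cannot be set against the background.

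**Figure D1:**
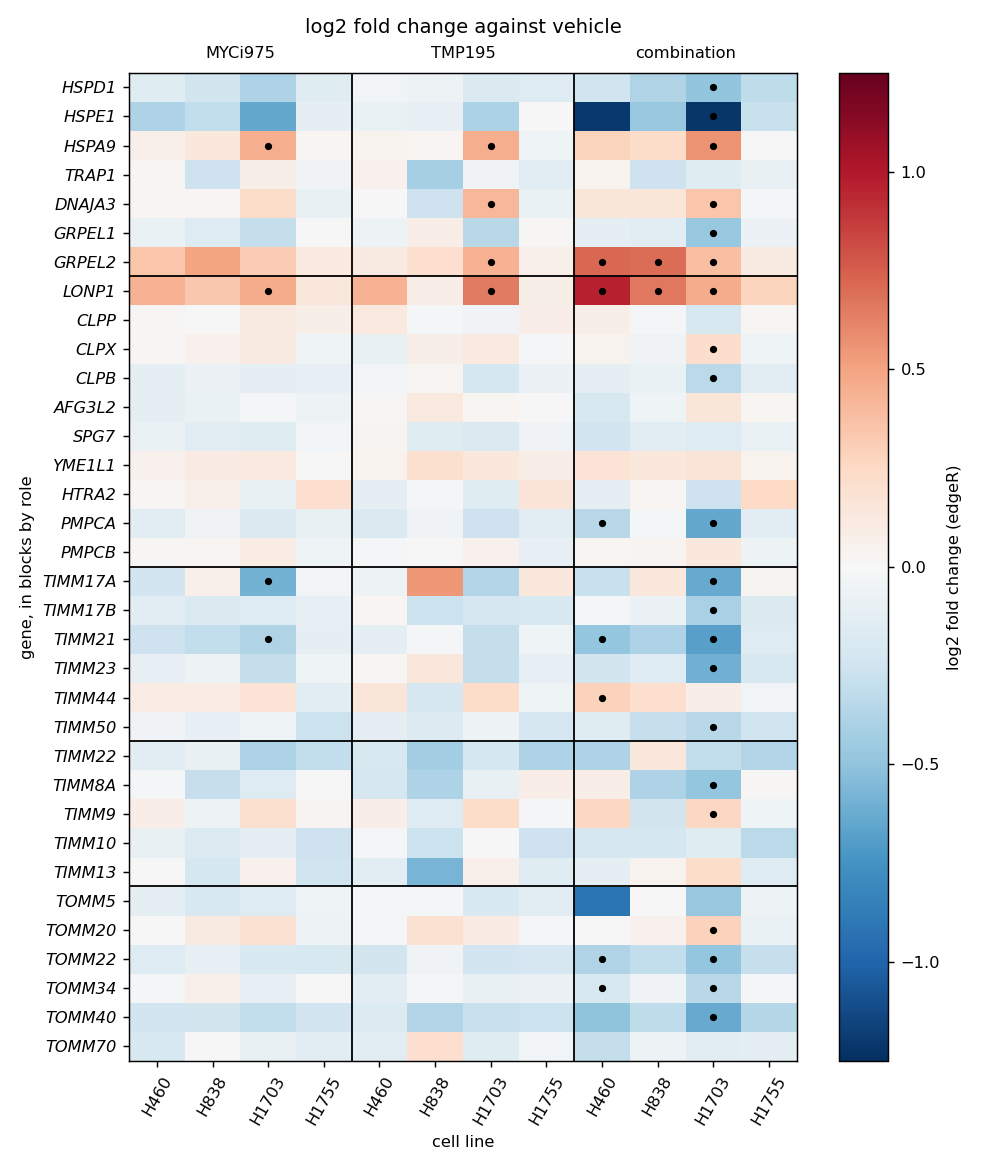
Log2 fold change against vehicle (color) of the 34 genes (vertical axis, in blocks by role from matrix chaperones at the top to the TOM complex at the bottom) in the 4 lines (horizontal axis) for each treatment, with a dot where the edgeR adjusted p was below 0.05. Dots gather in the H1703 column of the combination, where 21 of 34 genes were called, and the lowest values there and in H460 belong to HSPE1.

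Among the proteases, LONP1 was called most often of the 34 genes. It encodes the ATP-dependent Lon protease of the matrix, which degrades oxidized and misfolded proteins and also binds mitochondrial DNA. In H460 it read 88.0, 98.9, 101 and 79.5 CPM with vehicle, 112, 112, 122 and 153 with MYCi975, 114, 129, 124 and 129 with TMP195, and 177, 176, 174 and 189 with the combination. All 4 combination libraries lay above every single-agent library, and all single-agent libraries lay above vehicle. The combination difference was 0.96 ± 0.10 (SE, n = 4 per group, edgeR adjusted p = 5.24e-05), and each single agent gave 0.44 ± 0.10, just short of the threshold (adjusted p = 0.0514 for MYCi975 and 0.0508 for TMP195). With the library set term both single agents passed (0.43 each, adjusted p = 0.00391 and 0.00401). Without the overlap-counted libraries the combination value was 1.00 (adjusted p = 0.0324).

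In H838 LONP1 read 68.2, 85.6, 74.0 and 60.9 CPM with vehicle and 112, 104, 114 and 126 with the combination. These groups did not overlap, and the difference was 0.66 ± 0.13 (n = 4 per group, edgeR adjusted p = 0.0132). MYCi975 libraries there read 82.1, 85.6, 74.8 and 121 CPM and TMP195 libraries 72.4, 74.1, 80.9 and 77.9, both overlapping vehicle and below the threshold. In H1703 the 3 treated groups were all above vehicle without overlap. Vehicle read 61.7, 69.7, 70.1 and 57.7 CPM, MYCi975 82.6, 90.9, 102 and 82.8, TMP195 95.4, 105, 114 and 92.3, and the combination 102, 82.1, 100.2 and 78.1. The fold changes were 0.46 ± 0.11 for MYCi975, 0.65 ± 0.11 for TMP195 and 0.47 ± 0.11 for the combination (edgeR adjusted p = 0.0129, 0.00134 and 0.00305), so the combination was not above TMP195 alone in this line.

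In H1755 LONP1 groups overlapped, with 92.2, 95.1, 102 and 60.9 CPM with vehicle and 98.5, 113, 121 and 91.4 with the combination. That difference was 0.27 ± 0.14 (n = 4 per group, edgeR adjusted p = 0.487), and 0.29 with the library set term (adjusted p = 0.0181) and with the replicate block (adjusted p = 0.000843). The lowest library of vehicle was replicate 4, which belongs to another library set than replicates 1 to 3. LONP1 was above 0 in all 12 comparisons with vehicle, 3 to a vehicle group, and its response to the combination differed between the lines in a fit of all 64 libraries (F test, adjusted p = 0.0448, against 8.41% of all genes). All 5 LONP1 calls held when any 1 library of the comparison was left out.

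**Figure D2:**
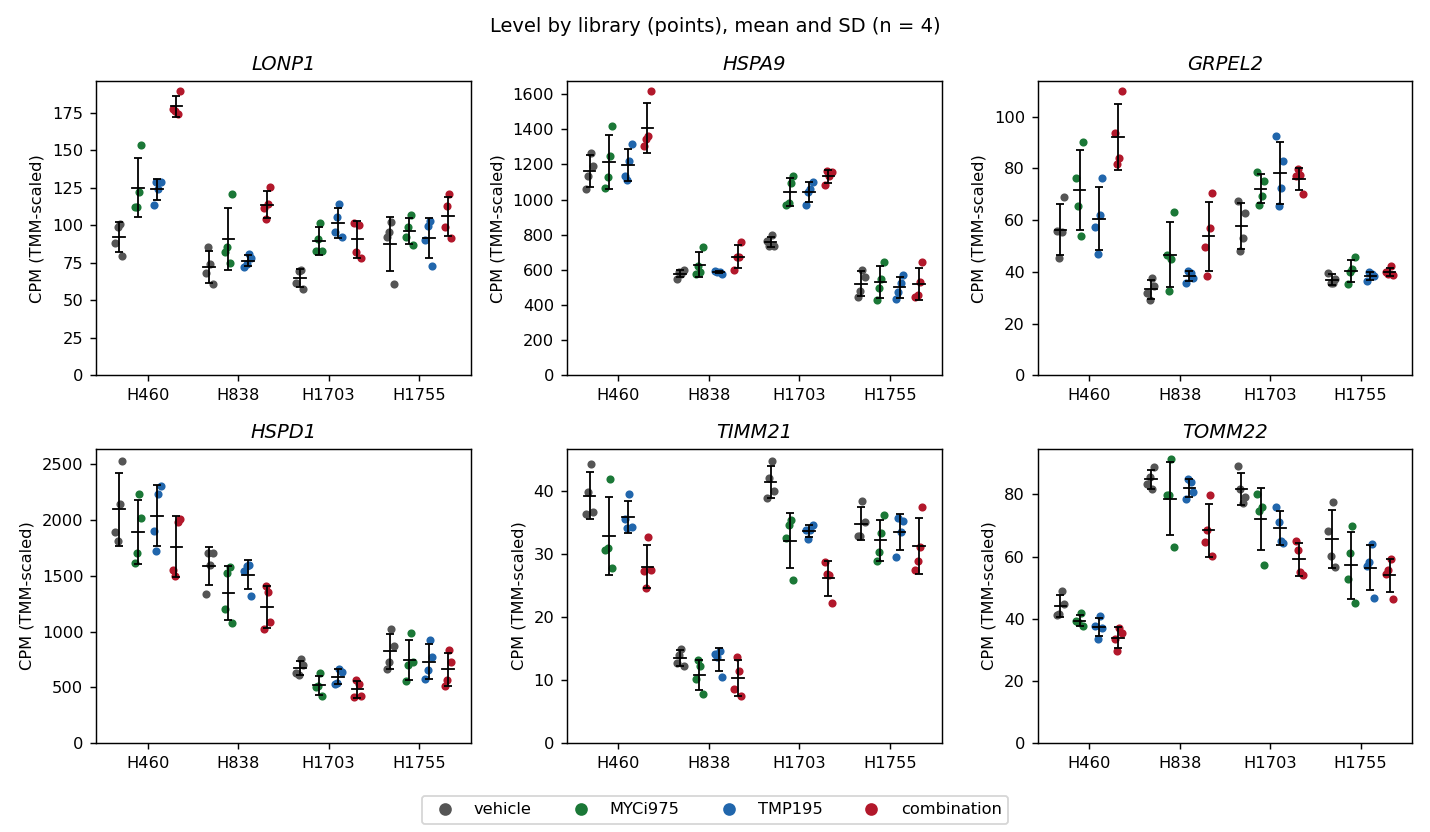
TMM-scaled CPM (vertical axes, linear from 0) of 6 genes in every library (points), with the mean and SD of each group of 4, by line (horizontal axes) and treatment (colors). LONP1 in H460 stands at 174 to 189 CPM with the combination against 79.5 to 101 with vehicle, and TIMM21 and TOMM22 in H1703 are lowest with the combination.

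PMPCA, the alpha subunit of the processing peptidase that cuts presequences, fell with the combination in H460, where it read 107, 97.9, 104 and 111 CPM with vehicle and 78.7, 80.8, 87.6 and 81.5 with the combination (-0.35 ± 0.06, edgeR adjusted p = 0.00111). It fell further in H1703, from 52.7, 48.1, 55.8 and 49.5 CPM to 36.6, 35.2, 33.3 and 29.1 (-0.64 ± 0.12, adjusted p = 0.000628). The groups did not overlap in either line. In H838 vehicle was at 52.1, 50.03, 46.9 and 59.1 CPM and the combination at 47.9, 51.0, 52.9 and 51.9, and in H1755 they were at 95.6, 89.7, 96.8 and 70.6 and at 80.2, 88.7, 89.4 and 63.2. These overlapped, and the PMPCA response to the combination differed between lines (F test, adjusted p = 0.0232). PMPCB, its catalytic partner subunit, was not called in any comparison, and its fold changes had a mean size of 0.05.

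In H1703 the combination also raised CLPX, the unfoldase that feeds the CLPP protease (0.22 ± 0.08, edgeR adjusted p = 0.0288), and lowered CLPB, a disaggregase of the intermembrane space (-0.33 ± 0.07, adjusted p = 0.00172). The CLPX call was lost without any 1 of vehicle replicates 1, 2 and 3 or combination replicate 2, and the CLPB call held in all 8. CLPP itself, the membrane AAA proteases AFG3L2, SPG7 and YME1L1, and HTRA2, a protease of the intermembrane space, were called in no comparison with vehicle. YME1L1 was above 0 in 11 of 12 and SPG7 below 0 in 11 of 12, values that did not pass the test.

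Matrix chaperones split by direction in H1703. HSPA9, mitochondrial HSP70 and the motor of import, rose there with every treatment. It read 763, 738, 799.8 and 737 CPM with vehicle, 969, 982, 1095 and 1131 with MYCi975, 967, 1044, 1058 and 1103 with TMP195, and 1083, 1161, 1132 and 1156 with the combination. No treated library overlapped vehicle, and the fold changes were 0.45 ± 0.07, 0.46 ± 0.07 and 0.56 ± 0.07 (n = 4 per group, edgeR adjusted p = 0.000871, 0.000724 and 1.79e-05). The 3 calls held in each leave-one-out fit.

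In H460 HSPA9 was at 1058, 1132, 1267 and 1192 CPM with vehicle and 1306, 1344, 1359.9 and 1615 with the combination, without overlap and with an adjusted p of 0.0547 for 0.28 ± 0.09. In H838 it was at 550.4, 590.2, 579 and 598 CPM with vehicle and 601, 673, 674 and 756 with the combination, again without overlap and not called (0.23 ± 0.09, edgeR adjusted p = 0.169). In H1755 the groups overlapped, at 445, 479, 601 and 561 CPM and 443, 459.9, 533 and 646. The HSPA9 response to the combination differed between lines (F test, adjusted p = 0.0428). With the library set term it also passed in H460 and H838 (adjusted p = 0.00599 and 0.032).

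DNAJA3, the J-domain partner of HSPA9, was higher in H1703 with TMP195 (0.42 ± 0.11, edgeR adjusted p = 0.0218) and with the combination (0.35 ± 0.11, adjusted p = 0.0175). It read 35.6, 30.8, 27.9 and 27.3 CPM with vehicle, 42.9, 44.4, 38.4 and 36.6 with TMP195 and 48.1, 37.2, 35.6 and 35.4 with the combination. TMP195 libraries did not overlap vehicle, but the combination libraries did, at 35.4 against 35.6 CPM. The TMP195 call was lost without vehicle replicates 2, 3 or 4 or TMP195 replicates 1 or 2, and the combination call without vehicle replicates 3 or 4 or combination replicate 1. In H838 TMP195 read lower, at 28.99, 31.1, 32.0 and 28.9 CPM against 39.1, 38.3, 37.3 and 30.4 (-0.26 ± 0.09, adjusted p = 0.233). The TMP195 response of DNAJA3 differed between lines (adjusted p = 0.0202, against 0.519% of all genes), while 0 members differed so with MYCi975 (0.154% of all genes), where the edgeR F test gave 2 at an unadjusted p below 0.05. In H838, 3 of the 4 TMP195 libraries belong to another library set than vehicle replicates 1 to 3.

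GRPEL1 and GRPEL2 are the paralogous nucleotide exchange factors that release ADP from HSPA9. With the combination GRPEL2 rose in 3 lines. In H460 it read 55.9, 45.3, 55.4 and 69.0 CPM with vehicle and 93.8, 81.7, 83.9 and 109.7 with the combination (0.71 ± 0.17, edgeR adjusted p = 0.0122). In H838 it read 32.0, 29.1, 37.5 and 34.5 CPM and 49.5, 38.5, 56.8 and 70.3 (0.70 ± 0.18, adjusted p = 0.0438), and in H1703 67.4, 48.2, 52.9 and 62.9 CPM and 76.9, 79.6, 77.3 and 69.9 (0.38 ± 0.11, adjusted p = 0.0118). Combination libraries lay above vehicle without overlap in these 3 lines. The H838 call held without combination replicate 2 and was lost without any other single library, and the H1703 call was lost without vehicle replicate 2. In H1755 GRPEL2 was at 39.7, 35.6, 35.6 and 37.4 CPM and 40.1, 39.2, 42.2 and 38.6 with the combination (0.11 ± 0.08, adjusted p = 0.731). TMP195 in H1703 gave 0.44 ± 0.11 (adjusted p = 0.0185), lost without vehicle replicates 2 or 3 or TMP195 replicates 1 or 4. Without the overlap-counted libraries the H460 value was 0.56 (adjusted p = 0.245).

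GRPEL1 moved the other way in H1703. It read 23.4, 24.0, 22.9 and 25.6 CPM with vehicle and 16.8, 17.0, 19.8 and 16.1 with the combination, without overlap (-0.48 ± 0.11, edgeR adjusted p = 0.00201). The log2 ratio of GRPEL2 to GRPEL1 in H1703 was 1.26 ± 0.21 (SD, n = 4) with vehicle, 1.88 ± 0.28 with MYCi975, 2.04 ± 0.29 with TMP195 and 2.13 ± 0.12 with the combination. In H460 it was 1.51 ± 0.29 with vehicle and 2.35 ± 0.26 with the combination. None of these 4 treated groups overlapped vehicle, and each difference had the smallest p that 4 against 4 libraries allow in the exact two-sided permutation test (0.0286). Adjusted over the 36 ratios tested, that p was 0.147, so the ratios did not pass. With 0.0286 as the smallest p possible, only many ratios at that floor together could have passed. Not passing therefore does not show that the ratios stayed the same.

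**Figure D3:**
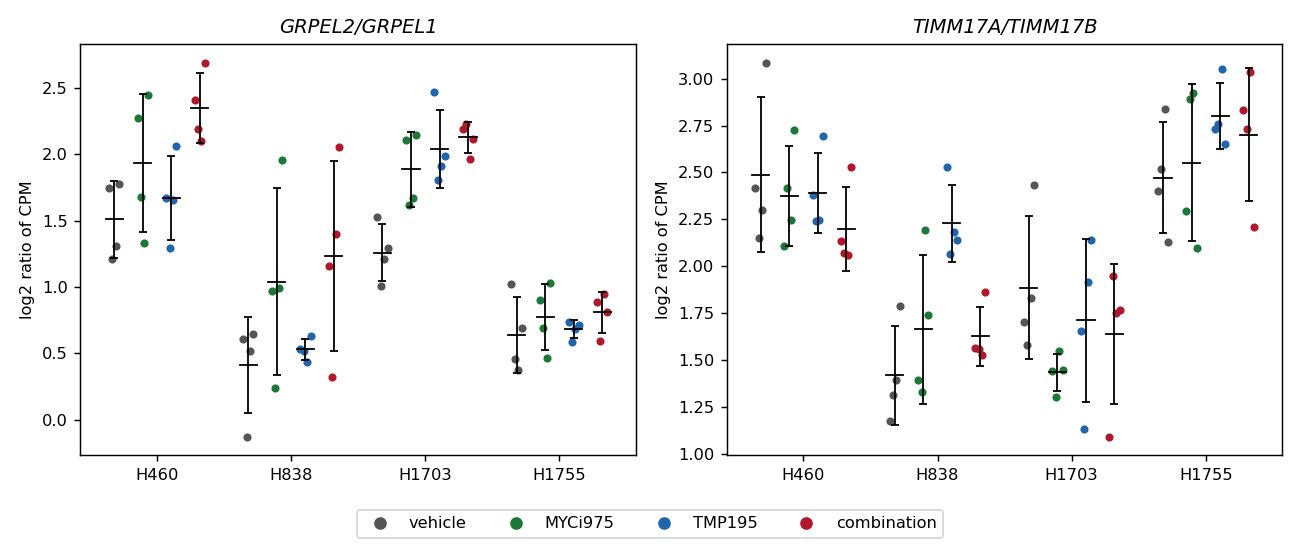
Log2 ratio of CPM (vertical axes) of GRPEL2 to GRPEL1 and of TIMM17A to TIMM17B in every library (points), with the mean and SD of each group of 4, by line and treatment. In H1703 the GRPEL2 to GRPEL1 ratio averaged 1.26 with vehicle and 1.88 to 2.13 in the treated groups, and no treated library overlapped vehicle.

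HSPD1 and HSPE1 are the HSP60 and HSP10 of the folding chamber and both fell with the combination in H1703. HSPD1 read 626, 613, 755 and 701 CPM with vehicle and 413, 564, 529.8 and 426 with the combination (-0.50 ± 0.13, edgeR adjusted p = 0.00569). HSPE1 read 16.3, 14.9, 19.8 and 13.2 CPM with vehicle, 11.96, 9.98, 13.6 and 5.92 with MYCi975, 13.1, 11.3, 13.8 and 10.7 with TMP195, and 7.57, 7.14, 8.97 and 4.31 with the combination. The combination libraries of both genes lay below vehicle, and HSPE1 gave -1.22 ± 0.23 (adjusted p = 0.000487). Both calls held in each leave-one-out fit. The log2 ratio of HSPD1 to HSPE1 rose from 5.40 ± 0.22 to 6.15 ± 0.39 (SD, n = 4, exact permutation p = 0.0286, adjusted 0.147). That p is again the smallest this test allows, with the same limit after adjustment. Over all 4 lines, HSPD1 and HSPE1 were each below 0 in all 12 comparisons with vehicle, and each was called in 1 of them.

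In H838 HSPE1 read 41.1, 40.8, 40.3 and 41.2 CPM with vehicle and 23.7, 36.2, 35.9 and 22.1 with the combination, without overlap, and was not called (-0.47 ± 0.17, edgeR adjusted p = 0.146). With the library set term it passed (-0.49, adjusted p = 0.00921). HSPE1 counts are uncertain, because 26 annotated pseudogenes carry its name and 9.71% of its exon bases lie in the HSPE1-MOB4 readthrough gene on the same strand and 14.2% in HSPD1 on the other. HSPD1 has 17 such pseudogenes. TRAP1, the mitochondrial HSP90, was called in no comparison with vehicle and was below 0 in 8 of 12. How reads that fit several places were counted is not given in the sources used here.

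For HSPE1 in H460 the 7 overlap-counted libraries stood apart. They read 145 and 138 CPM with vehicle, 116 and 102 with MYCi975, 149 and 119.7 with TMP195 and 81.8 with the combination, while the 9 others read 23.7 to 60.3. With all libraries the combination gave -1.20 ± 0.55 (edgeR adjusted p = 0.172), and without these 7 it gave -0.91 ± 0.25 (adjusted p = 0.104). TOMM5, a small TOM subunit with 18.7% of its exon bases shared with other genes on its strand, split in the same way. It was at 81.0 to 109 CPM in the 7 libraries and 9.42 to 18.5 in the 9 others. Its combination value was -0.91 ± 1.04 with all libraries and -0.05 ± 0.28 without the 7, neither of them called.

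**Figure D4:**
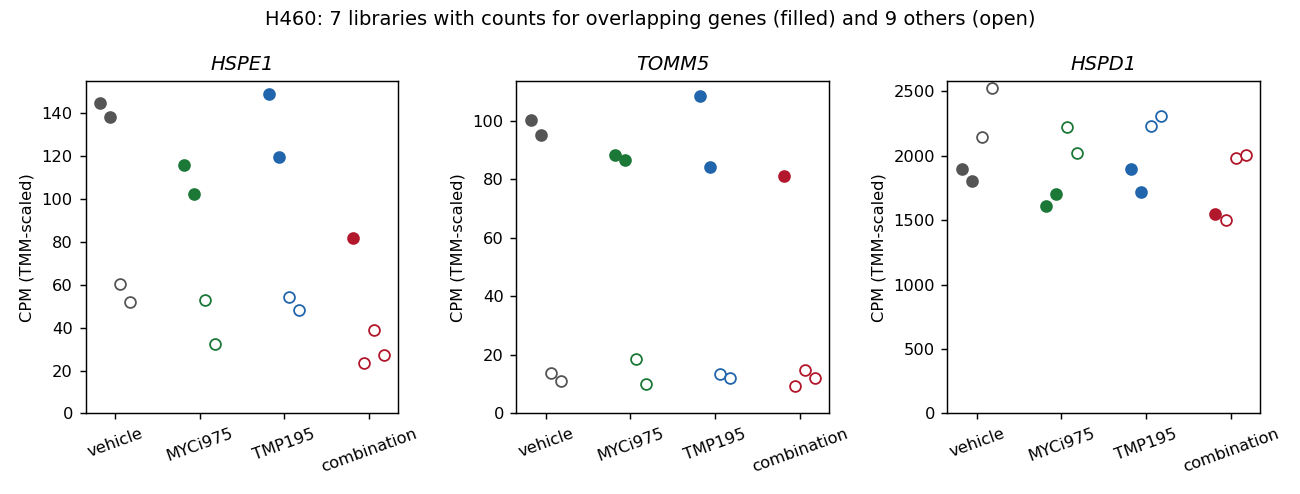
TMM-scaled CPM (vertical axes) of HSPE1, TOMM5 and HSPD1 in the 16 H460 libraries by treatment, with the 7 overlap-counted libraries (those with EEF1G counts) filled and the 9 others open. Filled points lie at 81.0 CPM or more and open points at 60.3 or less for HSPE1 and TOMM5, while HSPD1 shows no such gap.

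The TIM23 complex had the largest share of falls of any role in H1703, with 5 of 6 genes lower and 0 higher after the combination. Of all genes, 18.5% were lower and 19.9% higher there. Each role holds few genes, and the roles were not tested against each other. TIMM21 read 38.9, 42.0, 44.8 and 40.1 CPM with vehicle, 32.5, 34.7, 35.5 and 25.9 with MYCi975, 33.9, 32.5, 33.8 and 34.6 with TMP195, and 28.8, 26.9, 26.7 and 22.2 with the combination. All treated libraries lay below vehicle, with -0.37 ± 0.10 for MYCi975, -0.30 ± 0.10 for TMP195 and -0.68 ± 0.10 for the combination (edgeR adjusted p = 0.0285, 0.0755 and 7.7e-05). The MYCi975 call was lost without vehicle replicates 2 or 3 or MYCi975 replicates 1 or 4. In H460 TIMM21 read 36.3, 39.9, 44.3 and 36.6 CPM with vehicle and 27.4, 24.6, 32.7 and 27.5 with the combination, without overlap (-0.49 ± 0.12, adjusted p = 0.0147). Without the overlap-counted libraries that value was -0.52 (adjusted p = 0.232). In H838 and H1755 vehicle and combination overlapped, and the values were -0.39 ± 0.18 and -0.16 ± 0.11 (adjusted p = 0.277 and 0.699).

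TIMM17A and TIMM17B are paralogous subunits of the TIM23 channel. In H1703 TIMM17A read 37.9, 39.2, 40.7 and 47.1 CPM with vehicle, 27.0, 25.5, 33.99 and 23.0 with MYCi975 and 21.4, 34.03, 28.1 and 24.4 with the combination. Both treated groups lay below vehicle (-0.60 ± 0.15 and -0.63 ± 0.15, edgeR adjusted p = 0.0183 and 0.00343), and the MYCi975 call was lost without replicate 4 of either group. TIMM17B was also lower with the combination there, at 10.1, 8.83, 8.34 and 7.16 CPM against 11.7, 13.1, 11.5 and 8.72. Its groups overlapped, and its call (-0.40 ± 0.15, adjusted p = 0.0463) held in 2 of 8 leave-one-out fits, those without vehicle replicate 4 or combination replicate 1. In H838 TIMM17A was at 29.7, 33.3, 33.7 and 41.9 CPM with vehicle and 55.4, 47.7, 50.9 and 46.8 with TMP195, higher without overlap but not called (0.54 ± 0.13, adjusted p = 0.0748). It passed with the replicate block (0.55, adjusted p = 0.00583), in DESeq2 (0.53, adjusted p = 0.00904) and without vehicle replicate 4. With the library set term it was 0.19 and did not pass (adjusted p = 0.63). The TMP195 libraries of H838 held no library of the first set, to which vehicle replicates 1 to 3 belong.

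The other TIM23 members in H1703 were TIMM23, the channel subunit (-0.60 ± 0.17, edgeR adjusted p = 0.0098), and the presequence receptor TIMM50 (-0.35 ± 0.13, adjusted p = 0.0369), both lower with the combination. The TIMM50 call held in 3 of 8 leave-one-out fits and was lost without vehicle replicates 1, 2 or 3 or combination replicates 2 or 4. TIMM44, which tethers HSPA9 to the channel, was called in H460 instead, where the combination raised it (0.29 ± 0.07, adjusted p = 0.0167). That call was lost without combination replicate 1. In the TIM22 and small TIM group, the combination in H1703 lowered TIMM8A (-0.48 ± 0.16, adjusted p = 0.0229) and raised TIMM9 (0.26 ± 0.10, adjusted p = 0.0484), and TIMM22, TIMM10 and TIMM13 were not called. The TIMM8A call was lost without vehicle replicates 1 or 2 or combination replicates 2 or 4, and the TIMM9 call held only without combination replicate 4. TIMM9 shares 30.5% of its exon bases with genes on the other strand, so its counts are uncertain while the strand setting is not known.

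In the TOM complex, TOMM22, the central receptor, fell with the combination in 2 lines. In H1703 it read 89.0, 81.6, 77.1 and 79.1 CPM with vehicle and 65.0, 62.2, 55.1 and 54.2 with the combination (-0.48 ± 0.10, edgeR adjusted p = 0.00103). In H460 it read 41.1, 41.5, 49.0 and 44.8 CPM and 33.5, 29.7, 37.2 and 35.6 (-0.37 ± 0.08, adjusted p = 0.00499). In both lines the groups did not overlap. In H838 vehicle was at 83.2, 85.6, 81.7 and 88.9 CPM and the combination at 64.8, 68.7, 79.9 and 60.2, also without overlap, and not called (-0.31 ± 0.10, adjusted p = 0.113). In H1755 they overlapped at 68.4, 60.2, 77.7 and 56.7 CPM and 54.6, 55.6, 59.2 and 46.5, with -0.29 ± 0.13 (adjusted p = 0.398), and -0.29 (adjusted p = 0.0171) with the library set term. Without the overlap-counted libraries the H460 value was -0.46 (adjusted p = 0.138). TOMM22 has 6 pseudogenes named after it.

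TOMM40, the pore, was lower with the combination in H1703, at 63.6, 43.1, 60.8 and 43.6 CPM against 90.9, 85.3, 86.0 and 60.5 with vehicle (-0.63 ± 0.18, edgeR adjusted p = 0.0107). Those groups overlapped, through vehicle replicate 4 at 60.5 CPM. TOMM40 was below 0 in all 12 comparisons with vehicle, over all 4 lines, and was called in 1 of them. TOMM34, a cytosolic cochaperone of precursors, fell in H1703 from 44.5, 49.8, 44.9 and 42.4 CPM to 40.0, 40.0, 34.3 and 30.6 without overlap (-0.34 ± 0.11, adjusted p = 0.019). In H460 it read 55.0, 51.9, 57.9 and 52.1 CPM with vehicle and 49.0, 43.6, 47.0 and 48.9 with the combination (-0.20 ± 0.06, adjusted p = 0.0484), a call that held only without vehicle replicate 4. The H1703 call was lost without vehicle replicate 2 or combination replicate 4. TOMM20, the presequence receptor of the surface, rose in H1703 with the combination (0.29 ± 0.11, adjusted p = 0.0376), lost without vehicle replicates 2 or 3 or combination replicates 1, 2 or 4. TOMM70, the receptor for carriers, and TOMM5 were not called.

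Set against each single agent, the combination called few members. In H460 LONP1 was higher with the combination than with MYCi975 (0.53 ± 0.10, edgeR adjusted p = 0.0236, against 1.06% of all genes) and than with TMP195 (0.53 ± 0.10, adjusted p = 0.0113, against 3.91%). The first call held without MYCi975 replicate 4 or combination replicate 3 and was lost without any other single library, and the second held in all 8 fits. Without the overlap-counted libraries the values were 0.39 and 0.50 (adjusted p = 0.999 and 0.605), and neither was called, as 0% of all genes were. In H1703 HSPE1 (-0.83 ± 0.23, adjusted p = 0.0466) and TIMM21 (-0.38 ± 0.10, adjusted p = 0.0437) were lower with the combination than with TMP195 (against 4.87% of all genes). HSPE1 kept that call without TMP195 replicate 4 or combination replicate 3, TIMM21 without combination replicate 1, and both lost it without any other single library. Against MYCi975 in H1703 the count was 0 (1.7% of all genes), 9 at an unadjusted p below 0.05 and 2 in DESeq2 (6.55% of all genes). The edgeR count was 11 without MYCi975 replicate 4. The share of all genes called in that fit is not given here, so the count cannot be set against the background. HSPE1, PMPCA and TOMM22 levels in that library were the lowest of its group, and what moved the count was not tested.

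No member was called for the combination against MYCi975 in H838 and H1755 (0.0242% and 0.0544% of all genes), or against TMP195 in H838 and H1755 (0.0436% and 0%). The edgeR test gave 1, 0, 13 and 0 members at an unadjusted p below 0.05 in these, and DESeq2 called 0, 0, 4 and 0 (0.257%, 0.391%, 2.42% and 0.00495% of all genes). For the combination against TMP195 in H838, the replicate block called 10 members (7.11% of all genes), and the library set term called 0 (0.0242%), with 8 at an unadjusted p below 0.05. For the combination against MYCi975 in H1755 the block called 1 (3.19%). The difference of the combination from the sum of both single-agent changes called 0 members in every line. Of all genes it called 0.144% in H1703 and 0% in the other lines. At an unadjusted p below 0.05 it gave 4 members in H838, 3 in H1703 and 0 in the others, and DESeq2 called 1 member in H1703 (0.543% of all genes) and 0 elsewhere (0.00471% in H460, 0.0097% in H838 and 0.00495% in H1755). In H1703 these 3 were LONP1, HSPA9 and GRPEL2 (-0.65 ± 0.16, -0.35 ± 0.10 and -0.37 ± 0.16, adjusted p = 0.155, 0.326 and 0.706). Each of these values was below 0 and did not pass the test.

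The promoter windows of RefSeq (GRCh38.p14, 250 bases before to 50 after a start) were found for 30 of the 34 genes, as 34 windows. The E-box CACGTG, read on both strands as it is a palindrome and known as the element that MYC with MAX binds, was in 7 of the 34 windows (20.6%), against 7.26% of all 35116 windows. The 7 genes were HSPA9, LONP1, TOMM20, HSPD1, HSPE1, TIMM8A and TIMM10. With the combination in H1703 the first 3 rose, the next 3 fell and TIMM10 was not called. The NRF1 element was in 32.4% of the members' windows, against 5.78% of all, the CCAAT box in 35.3% against 34.6%, TGATGNAA in 5.88% against 3.62% and the heat shock element GAANNTTC in 2.94% against 6.77%, each on both strands. Shown are a window of LONP1 (one of 2 for that gene, on the minus strand, chr19:5720097-5720396), that of HSPA9 (minus strand, chr5:138575352-138575651) and that of HSPE1 (plus strand, chr2:197500129-197500428), as genes that share the E-box and moved in different directions. Each runs 5′ to 3′ along its gene, with the E-box in capitals.
LONP1: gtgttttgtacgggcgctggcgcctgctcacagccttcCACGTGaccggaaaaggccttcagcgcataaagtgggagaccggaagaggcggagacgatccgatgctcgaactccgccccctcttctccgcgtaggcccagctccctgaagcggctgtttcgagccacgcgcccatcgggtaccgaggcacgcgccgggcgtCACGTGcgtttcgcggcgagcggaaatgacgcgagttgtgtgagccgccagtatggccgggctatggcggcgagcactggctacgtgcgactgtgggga
HSPA9: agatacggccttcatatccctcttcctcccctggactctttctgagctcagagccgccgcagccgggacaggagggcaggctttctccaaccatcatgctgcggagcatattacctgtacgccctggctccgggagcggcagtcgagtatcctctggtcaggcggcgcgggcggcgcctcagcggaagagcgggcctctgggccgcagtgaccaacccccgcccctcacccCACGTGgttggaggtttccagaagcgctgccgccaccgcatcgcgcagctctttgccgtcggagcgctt
HSPE1: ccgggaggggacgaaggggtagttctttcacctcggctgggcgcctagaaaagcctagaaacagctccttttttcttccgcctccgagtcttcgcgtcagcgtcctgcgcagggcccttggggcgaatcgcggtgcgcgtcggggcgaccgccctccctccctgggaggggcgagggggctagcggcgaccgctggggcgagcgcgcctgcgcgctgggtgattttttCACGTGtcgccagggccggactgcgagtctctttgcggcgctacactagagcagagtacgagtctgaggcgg
The LONP1 window shown holds 2 E-boxes, at -212 and -49 from the start, and HSPA9 and HSPE1 hold 1 each, at -19 and -22. The other LONP1 window, which is not shown, holds no E-box. HSPE1 and HSPD1 are read in opposite directions from starts 105 bases apart, and their windows share 204 bases, so the E-box of this stretch is counted for both genes. A match describes the letters of the window and is no measure of binding.

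Related genes outside the 34 were counted in the same fits. Of 35 other import and quality control genes, the combination raised 4 and lowered 9 of the 33 tested in H1703, or 39.4%, which is near the 38.3% of all genes called there. Among them were PHB1, an inner membrane scaffold (-0.73 ± 0.11, edgeR adjusted p = 7.04e-05), TIMM8B (-0.79 ± 0.13, adjusted p = 0.000192) and the stress-activated protease OMA1 (0.51 ± 0.10, adjusted p = 0.0009). Shares were also near those of all genes in H460, with 2 higher and 3 lower of 35 (14.3% against 15.7%), and in H838, with 1 higher of 33 (TIMM10B, 3.03% against 3.24%). In H1755 edgeR and DESeq2 both called 0 of 33, and edgeR gave 1 at an unadjusted p below 0.05. The median of the list there was -0.02.

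Of 19 cytosolic heat shock chaperones, the combination lowered 7 of the 18 tested in H460 (38.9%, against 15.7% of all genes). In H1703 it lowered 13 and raised 1 of 17 (82.4%, against 38.3%), with HSP90AA1 at -1.49 ± 0.21 and HSPA8 at -1.09 ± 0.16 (edgeR adjusted p = 3.09e-05 and 4.22e-05). It called 0 of 17 in H838 and 0 of 18 in H1755, where edgeR gave 5 and 4 at an unadjusted p below 0.05 and DESeq2 called 1 in each. The median of this list was lowest in H1703 at -0.79, then -0.55 in H460, -0.27 in H838 and -0.20 in H1755. Of 17 endoplasmic reticulum chaperones, it raised 13 in H838 (76.5%, against 3.24% of all genes), 10 in H1755 (58.8%, against 1.69%) and 9 in H460 (52.9%, against 15.7%). In H1703 it raised 7 and lowered 2 (52.9%, against 38.3%). Median fold changes of that list were 0.61, 0.64, 0.48 and 0.04 in the same order, while those of all tested genes lay between -0.03 and 0.02. These lists were chosen with earlier results in view, and no test of the lists themselves was made.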

How the data were processed

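The deposited table holds whole-number read counts per gene for 60649 versioned Ensembl gene IDs in 64 columns, and 0 other columns were left unused. The submitters' processing notes name Trimmomatic, STAR, featureCounts and the build GRCh38 (hg38). Their versions, the annotation and the strand setting are not given in the sources used here. Library preparation used a kit for stranded total RNA, per the labels' protocols. Of the IDs, 58381 matched GENCODE 29, which gave positions and overlaps, and symbols came from a supplied table.

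The 34 members, the lists and the tests were chosen with earlier results of these data known. Each line had 1 edgeR 4.0.16 quasi-likelihood fit (R 4.3.3, TMM, filterByExpr, 4 group means, 16 libraries), with Benjamini-Hochberg adjustment over all genes tested and a threshold of 0.05. Adjusted p-values of genes are from edgeR unless DESeq2 1.42.0 is named. Differences between lines were F tests in 1 fit of all 64 libraries, and vehicle levels were compared over 16. Genes followed by library are the 10 with most calls in the 12 comparisons with vehicle (ties by mean absolute log2 fold change) and both genes of 3 pairs. Their levels are printed above for some lines and treatments only. TOMM40, TIMM13 and TOMM5 were added after their values were seen. Replicate numbers were taken to pair libraries where every same-number correlation of deviations from group means exceeded 0.1, as it did in every H1755 comparison, for both single agents against vehicle in H460 and H1703, and in H838 for TMP195 and the combination against vehicle and against each other. The labels name no shared day or culture behind the numbers. Library sets were defined from EEF1G counts, column names and replicate number, with the data known. The fits were tested on simulated data. Those held no library sets and no variation shared by replicate number, so they do not bear on either.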

Additional observations from a re-analysis of the deposited data

Results flagged for a closer look

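For the 13 genes followed by library, 208 groups of 4 libraries were looked at. Of these groups, 6 held a library far from the other 3 for its group's range (Dixon's criterion), where chance flags about 1 in 20. DNAJA3 was at 73.3 CPM in 1 vehicle library of H460 and at 88.6 to 90.8 in the others, and at 48.1 in 1 combination library of H1703 with 35.4 to 37.2 in the others. TOMM34 was at 60.7 CPM in 1 MYCi975 library of H460, against 50.5 to 52.2. In H1755, HSPE1 was at 24.9 CPM in 1 TMP195 library, against 15.1 to 16.5, GRPEL1 at 25.9 in 1 combination library, against 21.7 to 22.1, and TIMM17B at 9.07 in 1 combination library, against 7.33 to 7.55.

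The response to a treatment differed between the 4 lines in the F test of the 64-library edgeR fit for 4 values, 1 with TMP195 (0.519% of all genes called) and 3 with the combination. Those 3 of 34 members are near the 8.41% of all genes called for the combination. For DNAJA3 with TMP195 the adjusted p was 0.0202, and for the combination it was 0.0428 for HSPA9, 0.0448 for LONP1 and 0.0232 for PMPCA. DNAJA3 was 0.42 higher with TMP195 in H1703 and fell by 0.26 in H838 (not called there), and HSPA9 was 0.56 higher with the combination in H1703 and at -0.00 in H1755. LONP1 ranged from 0.27 in H1755 to 0.96 in H460, and PMPCA from -0.64 in H1703 to -0.03 in H838. What lies behind these differences was not tested.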

How the results depend on the processing

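Counts of members called, in the order H460, H838, H1703 and H1755, were 0, 0, 4 and 0 for MYCi975, 0, 0, 4 and 0 for TMP195 and 7, 2, 21 and 0 for the combination against vehicle, and 1, 0, 0 and 0 (combination against MYCi975), 1, 0, 2 and 0 (against TMP195) and 0 in each line (beyond the sum). RLE size factors and library sizes without mitochondrial transcripts and abundant non-coding RNA left each of these counts within 1.5 times. In several of the fits below, calls over all genes moved as well, so the counts are not results about the members alone. For TMP195 in H1703, 9.65% of all genes were called with group means and 23.8% with the replicate block. For the combination in H460, 15.7% were called with group means and 31.5% with the library set term. A count with no share of all genes given above cannot be set against the background. A replicate block gave 4, 0, 13 and 7 (MYCi975), 2, 3, 14 and 5 (TMP195), 22, 9, 26 and 11 (combination), 6, 0, 12 and 1 (against MYCi975), 13, 10, 11 and 0 (against TMP195) and 2 beyond the sum in H1703. The library set term gave 4 and 9 (MYCi975, H460 and H1703), 1 and 12 (TMP195), 18, 11 and 5 (combination, H460, H838 and H1755), 5 and 7 (against MYCi975), 13 and 9 (against TMP195), 1 beyond the sum in H1703, and 1, 4 and 11 line differences in place of 0, 1 and 3. In the first library set alone the counts were 11 (TMP195, H1703), 3 and 1 (combination, H460 and H1755), 2 and 7 (against MYCi975, H460 and H1703) and 0 (against TMP195, H460), and H838 had no TMP195 library to compare. DESeq2 gave 1 and 7 (MYCi975, H460 and H1703), 1, 1 and 7 (TMP195, H460, H838 and H1703), 2 and 2 (against MYCi975, H460 and H1703), 2 and 4 (against TMP195, H460 and H838) and 1 beyond the sum in H1703. A fit of all 64 libraries gave 1 (against MYCi975, H1703) and 2, 2 and 0 (against TMP195, H460, H838 and H1703), and no filter on low counts 0 and 1 (against MYCi975, H460 and H1703) and 1 and 1 (against TMP195, H838 and H1703). Without the overlap-counted libraries, an alternative chosen after seeing the data, H460 had 1 call for the combination and 0 against each single agent. Leaving out 1 library at a time gave, where the count moved, 2 to 6 (MYCi975, H1703), 0 to 1 (TMP195, H838), 2 to 4 (TMP195, H1703), 5 to 8, 1 to 2 and 13 to 21 (combination, H460, H838 and H1703), 0 to 1, 0 to 1 and 0 to 11 (against MYCi975, same lines) and 0 to 1 (against TMP195, H1703). For the 13 genes followed by library, the only members checked for this, no value changed sign while called. Of their values, 5200 kept their side of the threshold, 162 came past it and 85 fell short. The cause of these moves was not tested. In the comparisons where numbers did not pair libraries, same-number correlations went down to -0.72 in H460 and -0.09 in H1703.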
